A study of Mus musculus with 4 samples.

Results

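Replication-dependent histone genes encode the linker histone H1 and the core histones H2A, H2B, H3 and H4 that package newly made DNA during S phase. They lie in clusters, have no introns as a rule, and most of their mRNAs end in a short hairpin bound by the protein SLBP in place of a poly(A) tail. Germinal centre B cells, which divide rapidly in the spleen after immunisation, need a large supply of these mRNAs. The RNA examined here was selected with oligo-dT, which captures poly(A) tails, so that the values describe these transcripts as recovered by that selection. How much of their signal came from polyadenylated forms was not tested, and the gene type rRNA was counted too (below).

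The members were the protein-coding genes whose symbol in the GENCODE M21 annotation begins with Hist1h, Hist2h, Hist3h or Hist4h, matched by Ensembl identifier. This gave 58 genes of 37646 listed. The deposited tables use newer symbols (H1f2 for Hist1h1c, H2bc11 for Hist1h2bj), and 5 of the 58 rows still carry the older form there. Of the 67 such genes in M21, 9 are not among the genes listed and so were not analysed here, Hist1h2aa being one of them. The 58 comprise 6 H1, 14 H2A, 15 H2B, 10 H3 and 13 H4 genes. On mm10, 50 of them lie on chromosome 13, 5 on chromosome 3, 2 on chromosome 11 and 1 on chromosome 6.

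All 4 libraries came from 1 group of mice, C57BL/6 normal controls of genotype YFPstopF/+ Cg1Cre/+, in which a Cre recombinase expressed from the Cg1 (Ighg1) locus removes a stop in front of a YFP reporter. Sheep red blood cells were injected 2 times with 20 days in between, and the spleen was removed 10 days after the last injection. Living B220+ YFP+ splenic cells were sorted, and the labels name them germinal centre B cells, although the reporter can also mark memory and plasma cells with past Cre activity. The labels give neither ages nor the number of animals per library. Technical spread and spread between animals therefore cannot be told apart, although library 3 came from the other sex (below). The lymphoma models named in the study's design were not analysed here, and each comparison below is between libraries or between genes.

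Totals ran from 13777954 to 14629025 counts per library. All 8 germinal centre markers and all 6 B lineage markers exceeded a transcripts-per-million (TPM, scaled for exon length) value of 1 in every library. Markers of T, myeloid and red cells were present too, with none of these 12 at 0 in any library. In counts-per-million (CPM, scaled to the total) values, 5 T cell genes summed to 68.8 to 202. The sums were 65.1 to 131 CPM for 4 macrophage and neutrophil genes and 19.6 to 64.2 CPM for 3 erythroid genes. All 5 T cell and all 4 macrophage and neutrophil markers also exceeded 1 TPM in every library, so this limit does not show purity. The median T cell marker stood at 14.79 TPM and the median macrophage and neutrophil marker at 48.99 TPM (means over libraries). The median germinal centre marker stood at 72.96 TPM and the median B lineage marker at 711.6 TPM. Library 3 differed from the others in its source: the Y-linked gene Ddx3y had 1307 counts there and at most 3 elsewhere, and Xist had 6 counts there and at least 8689 elsewhere. By these genes, library 3 came from male and the others from female cells.

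The hairpins of the members are shown because they define this class of mRNA and differ between families. A hairpin was searched for in M21 transcripts after the stop codon, as a stem of 6 bases beginning with GG, a loop of 4 bases beginning with TT and the matching stem. It was present in 40 of the 58 models, between 21 and 54 bases after the stop (median 31). Within 200 bases of the stop, 15 of 20521 other genes (0.0731%) had one. These other genes can include histone genes outside the 58. Only the longest transcript of each was searched, while for members a transcript with a hairpin was preferred. The 40 models held 6 distinct hairpins, of which an example of each follows with 5 flanking bases, 5′ to 3′ in DNA letters, stem and loop in capitals.
H1f2 (chr13:23739512-23739527, plus strand): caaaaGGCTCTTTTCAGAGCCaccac
H2bc3 (chr13:23747203-23747218, plus strand): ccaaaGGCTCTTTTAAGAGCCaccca
H2ac20 (chr3:96220418-96220433, minus strand): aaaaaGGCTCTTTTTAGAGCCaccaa
H4c4 (chr13:23581950-23581965, plus strand): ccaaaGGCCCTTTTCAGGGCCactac
H4c9 (chr13:22040966-22040981, minus strand): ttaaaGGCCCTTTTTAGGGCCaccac
H4c11 (chr13:21735437-21735452, plus strand): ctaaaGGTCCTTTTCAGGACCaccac
The form of H1f2 was shared by 22 members, all of them H1, H2A, H2B or H3 genes. The form of H2bc3 was held by 6 members, also outside H4. The forms of H4c4, H4c9 and H4c11 were held by 7, 2 and 2 members, all H4 genes, and no other family had one of these stems; H2ac20 alone held its form. Of the 18 models without a hairpin, 13 run fewer than 30 bases past the stop codon, and 11 of the members' models end at the stop itself, so that the annotation cannot show a hairpin there. The other 5 (H1f1, H2bc4, H2bc21, H3c8 and H4c1) have longer tails without these letters.

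The members took a small share of the poly(A)-selected RNA. They received 2773, 5441, 2094 and 3249 counts in libraries 1 to 4, a share of 0.0197% (exact Clopper-Pearson 95% interval 0.0190 to 0.0204), 0.0395% (0.0384 to 0.0406), 0.0143% (0.0137 to 0.0149) and 0.0227% (0.0219 to 0.0235) of all counts. No pair of these intervals overlaps, but they cover counting error alone, as the reads carry no molecular identifiers. Of the 58 members, 55 had a count in some library and 50 in every library. A mean of at least 1 CPM was reached by 37 (63.8%), beside 59.1% of 18730 protein-coding rows. The median member stood at 1.61 CPM, beside 4.20 CPM for these rows. Per exon length, the median member stood at 5.04 TPM, beside 2.45 TPM for 18712 protein-coding rows with a length. In bulk RNA such as this, fewer cells in S phase and less RNA per cell cannot be told apart.

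The linker histone genes, whose products bind the DNA entering and leaving the nucleosome, held the highest member. H1f2 (Hist1h1c, chr13:23738808-23740367) stood at 44.6, 100.4, 40.0 and 80.2 CPM in libraries 1 to 4. It was high in libraries 2 and 4 and low in 1 and 3, and it held 27.6% of the members' counts. Its level per length was 94.5 ± 37.1 TPM (SD, n = 4, as for all values with ± below). H1f1, H1f5 and H1f4 followed at 23.2 ± 12.1, 22.1 ± 15.6 and 18.2 ± 10.4 TPM, ranges that overlap. H1f4 stood at 14.7, 30.4, 7.31 and 11.6 CPM, and H1f5 at 7.74, 15.5, 2.94 and 3.91 CPM. Both were highest in library 2 and lowest in library 3. H1f3 had 3.35 ± 1.72 TPM over a model of 7425 bases, which lowers this value relative to its 11.3 ± 6.46 CPM. H1f6 (Hist1h1t), the testis form, had no count in any library, which allows at most 0.205 to 0.218 CPM (3 counts per library).

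H2A genes gave the least signal of the families per exon length, but not per unshared window, where H1 was lower (12.4% beside 13.1% of the members' signal), nor without length, where H3 was lower (9.32% beside 9.79%). The highest per length were H2ac15 at 11.3 ± 5.66 TPM, H2ac6 at 8.85 ± 1.67 TPM, H2ac4 at 6.63 ± 3.41 TPM, Hist1h2an at 5.32 ± 3.04 TPM and H2ac8 at 4.77 ± 0.80 TPM. These neighbours in the order did not differ beyond their spread. H2ac6 stood at 8.66, 13.0, 9.30 and 8.18 CPM, with library 2 highest and the others close together. H2aw, the H2A gene of the small cluster on chromosome 11, stood at 4.61, 5.23, 2.53 and 4.82 CPM, and it shares 31.5% of its 50-base windows with Trim17. The lowest detected H2A gene was H2ac10 at 0.0694 ± 0.0967 CPM, under the limit of 3 counts, and Hist1h2ao had no count.

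H2B genes ranged from strongly variable between libraries to nearly flat. H2bc11 stood at 6.10, 18.3, 4.10 and 10.4 CPM (46.2 ± 27.6 TPM) and H2bc3 at 6.46, 19.1, 3.62 and 9.16 CPM (41.3 ± 26.9 TPM). Both followed the order of libraries 2, 4, 1 and 3. H2bc8 followed at 18.9 ± 8.77 TPM, H2bc4 at 17.1 ± 2.90 TPM and H2bc12 at 13.0 ± 6.60 TPM. H2bc4 was flat by comparison, at 8.16, 9.07, 6.97 and 10.9 CPM with library 4 highest. H2bc21 (Hist2h2be), at 5.18, 4.14, 4.17 and 3.56 CPM, was highest in library 1. Neither the H2bc4 nor the H2bc21 model holds a hairpin, and they run 742 and 2192 bases past the stop. H2bc7 was the lowest detected H2B gene at 0.303 ± 0.219 CPM, and H2bc1 (Hist1h2ba), the testis form, had no count.

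Of the H3 genes, H3c1 was highest, at 6.32, 12.8, 2.60 and 4.75 CPM (27.1 ± 16.5 TPM). Library 2 was high and library 3 low. H3c11 (11.8 ± 7.59 TPM), H3c3 (8.66 ± 3.09 TPM), H3c6 (8.44 ± 3.12 TPM) and H3c8 (7.02 ± 3.34 TPM) came next with overlapping spreads. H3c7, the third of this family by CPM, stood at 2.61 ± 1.43 CPM and 4.57 ± 2.23 TPM. H3c4 (1.96 ± 0.68 CPM) was highest in library 1, and H3c15 (0.177 ± 0.215 CPM) was the lowest detected.

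Of the H4 genes, which encode the same core protein from many loci, H4c9 led at 38.3 ± 8.70 TPM. It stood at 10.6, 17.6, 10.5 and 10.97 CPM, so that library 2 was high and the others lay close together. H4c3 had 11.5 ± 6.12 TPM, H4c4 had 10.0 ± 6.22 TPM, Hist1h4m had 8.46 ± 3.18 TPM and H4c8 had 6.49 ± 4.38 TPM. H4c4 stood at 3.34, 10.2, 2.39 and 4.82 CPM, again highest in library 2. H4c14 on chromosome 3 and H4f16 on chromosome 6, outside the main cluster, stood at 2.66 ± 1.33 and 1.71 ± 0.92 CPM. H4c12, at 0.126 ± 0.171 CPM, was the lowest detected.

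**Figure D1:**
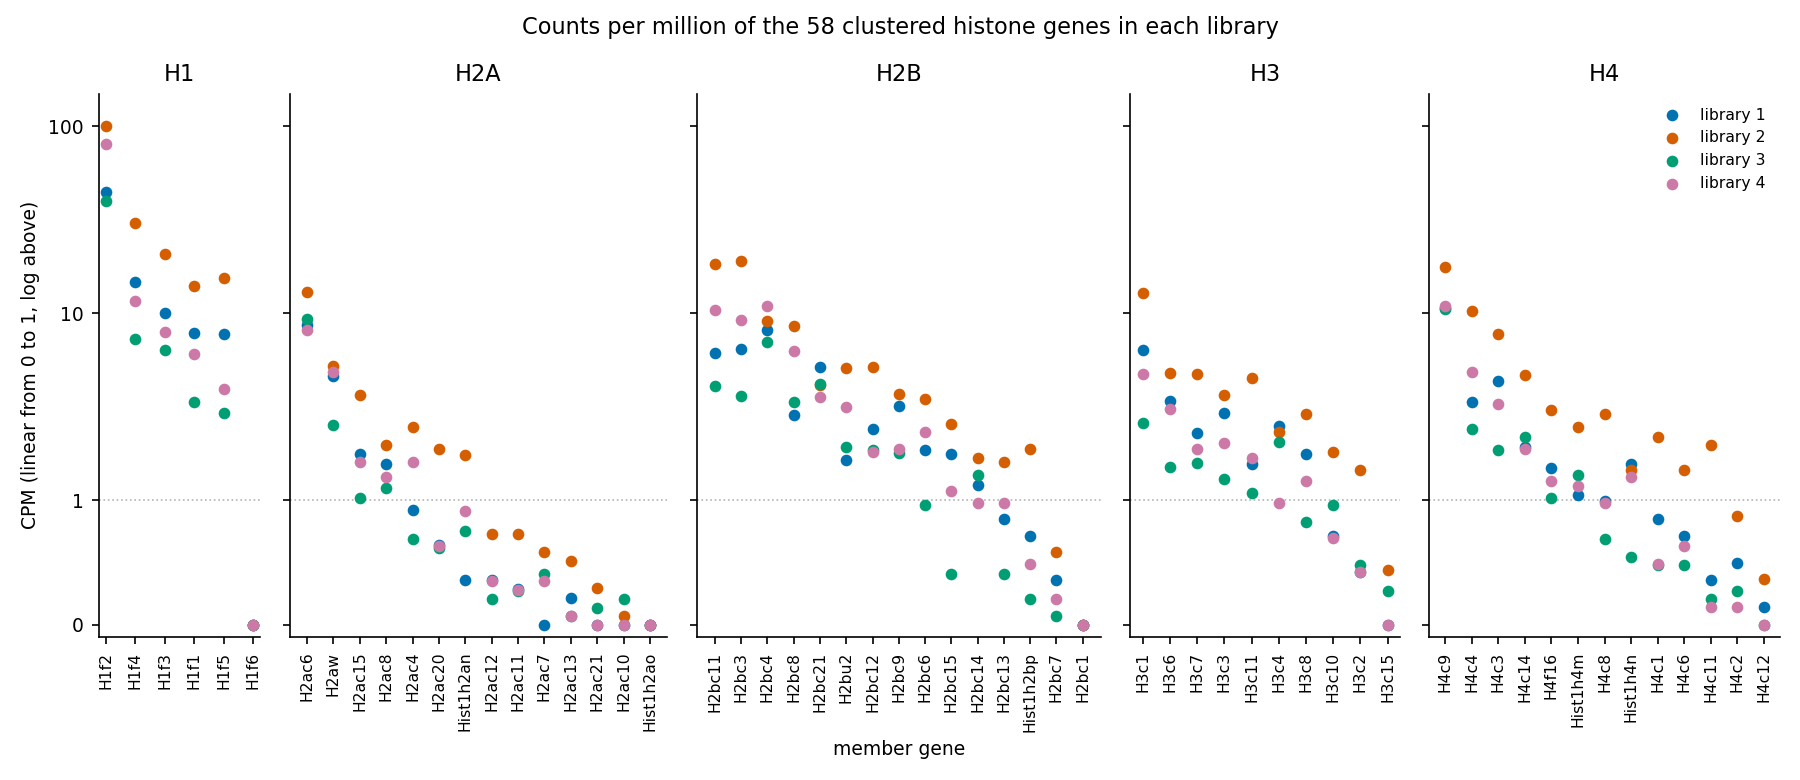
Level of each of the 58 members in each of the 4 libraries, in CPM (y axis, linear up to 1 and logarithmic above), grouped by histone family and ordered by mean; colours are libraries and the dotted line marks 1 CPM. Library 2 is the highest point for 33 of the 37 members that average 1 CPM or more.

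H2B and H1 genes together carried most of the signal per exon length. The shares of the members' summed TPM were 30.9% ± 2.51 for H2B, 28.1% ± 1.70 for H1, 17.8% ± 2.09 for H4, 13.8% ± 2.03 for H3 and 9.42% ± 1.22 for H2A. Without scaling for length, H1 held 44.8% ± 2.88 of the CPM and H2B 22.1% ± 0.91, and per 50-base window found in no other gene, H2B held 31.4% ± 3.84, H3 23.9% ± 2.17 and H1 12.4% ± 1.27, so the order of the families depended on the scaling. Without H1f2, the H1 share was 13.5%. By cluster, the 50 genes of the Hist1 cluster on chromosome 13 held 92.5% ± 1.21 of the members' CPM, the 5 Hist2 genes 3.66% ± 1.14, the 2 Hist3 genes 3.10% ± 0.37 and the Hist4 gene 0.70% ± 0.10.

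**Figure D2:**
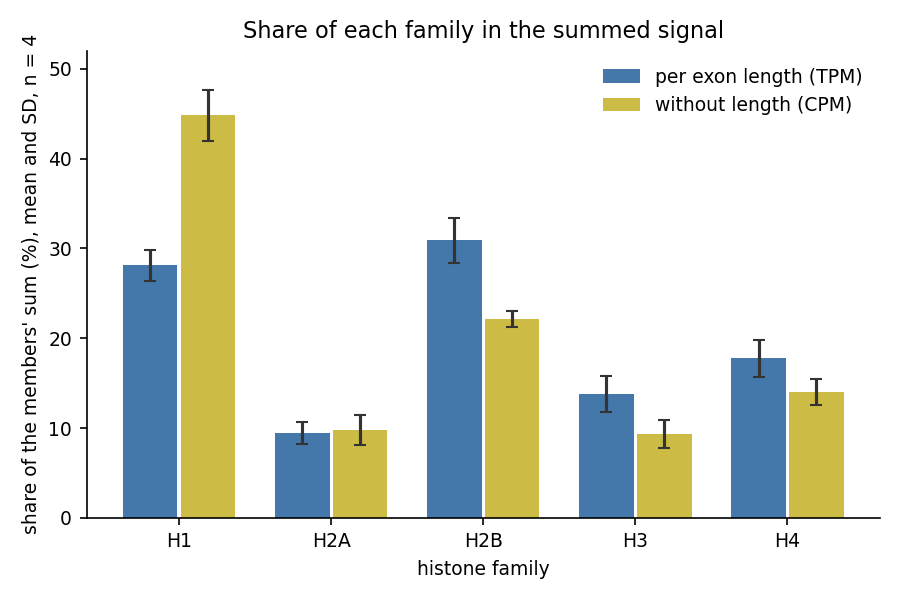
Share of each histone family in the summed signal of the 58 members, in percent (bars, mean over 4 libraries; error bars, SD), per exon length and without length. H1 takes 28.1% per length and 44.8% without it.

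Most members were highest in library 2. Their sum was 197, 395, 143 and 227 CPM in libraries 1 to 4, a 2.76-fold range. Each of the 5 families was highest in library 2 and lowest in library 3, with ranges of 3.02-fold for H1, 1.89-fold for H2A, 2.72-fold for H2B, 3.11-fold for H3 and 2.59-fold for H4. Among the 37 members that averaged 1 CPM or more, 33 were highest in library 2, beside 16.3% of the 12475 genes at that level, and none was lowest there, beside 37.5% of genes. In library 3, 27 of the 37 were lowest, beside 22.9% of genes. The count of 33 was unchanged with sizes scaled by TMM (trimmed mean of M-values), where the sum ran from 139 to 418 CPM. Without library 2, the range of the sum was 1.59-fold.

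Single members did not pass the test of variation between libraries. Of 11982 genes tested with edgeR's quasi-likelihood dispersion (Benjamini-Hochberg adjusted p under 0.05), 1 was called, 0.00835%, and none of the 32 members tested. The other 26 members were left out by edgeR's filter, which with 1 group asks for a minimum level in every library. It drops low members, but also members low in only some libraries. Among those dropped were H2bc15 (mean 1.46 CPM, 6.19-fold range) and H4c8 (1.39 CPM, 4.25-fold), while H2bc14 (1.31 CPM, 1.71-fold) was tested. With a filter on a mean of at least 1 CPM instead, 37 members were tested and none was called. Without a filter on low counts, 262 genes (0.844% of 31026) and 6 of 55 members were called, namely H1f2, H1f4, H1f5, H2bc3, H2bc11 and H3c1, with edgeR adjusted p from 0.0093 to 0.0472. DESeq2 marked 1 member, H1f4, among 159 dispersion outliers, and limma called no gene (603 at an unadjusted p under 0.05). At an unadjusted edgeR p under 0.05 there were 10 of 32 members (31.3%), beside 4.97% of all genes tested. All 10 were highest in library 2 and lowest in library 3. They were the 5 H1 genes with counts, H2bc3, H2bc11, H3c1, H4c3 and H4c4. Without library 2, 1 of 33 members (H1f2) remained at an unadjusted p under 0.05.

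The 5 tested members with the smallest p were H1f2, H1f4, H1f5, H2bc3 and H2bc11. H1f2 had a 2.51-fold range between libraries (edgeR quasi-likelihood adjusted p = 0.528). H1f4 had a 4.16-fold range (edgeR adjusted p = 0.579), H1f5 a 5.26-fold range (0.589), H2bc3 a 5.27-fold range (0.589) and H2bc11 a 4.46-fold range (0.673). Their coefficients of variation, 43.7 to 75.7%, compare with 3.27 to 9.75% from counting error alone. At the other end, H2bc21 varied by 15.8%, beside 12.9% from counting error, H2bc4 by 18.9% beside 8.96%, H2bc14 by 22.2% beside 23.3%, H2ac6 by 22.4% beside 8.50%, H2ac8 by 23.0% beside 21.7% and H4c9 by 27.8% beside 7.54%.

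**Figure D3:**
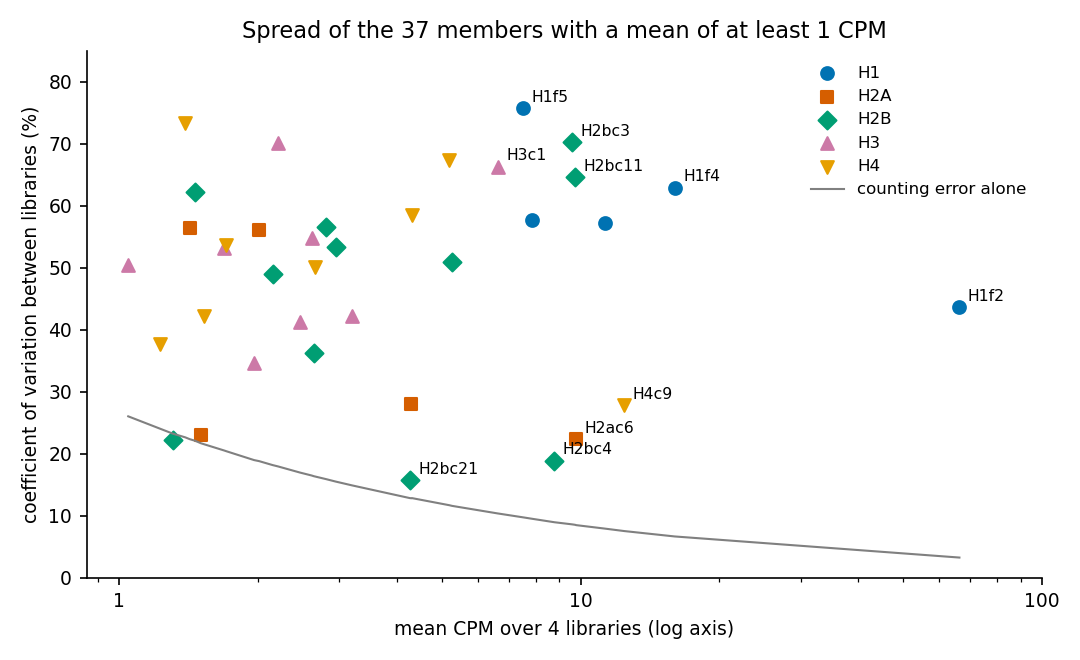
Coefficient of variation between the 4 libraries (y axis, percent) against mean CPM (x axis, log) for the 37 members that average 1 CPM or more; symbols are histone families and the line is the spread that counting alone gives. H1f5, H2bc3 and H1f4 lie far above the line, and H2bc21 lies close to it.

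Genes of the S phase programme had another order of libraries than the histone genes. The 13 replication genes, led per length by Mcm5 (226 ± 56.5 TPM), Mcm3 (199 ± 63.9 TPM) and Mcm6 (170 ± 53.9 TPM), subunits of the replicative helicase, and lowest in Gins2 (11.1 ± 2.62 TPM), summed to 2582, 1855, 3087 and 2540 CPM. Of these 13 genes, 12 were lowest in library 2 and 10 highest in library 3, the reverse of the histone genes. Of all genes that averaged 1 CPM or more, 37.5% were lowest in library 2 and 32.3% highest in library 3. The 17 genes of the G2 and M phases summed to 2681, 1937, 3328 and 2657 CPM, and all 17 were lowest in library 2. They were led by Mki67 (214 ± 73.5 TPM), Top2a (116 ± 36.4 TPM) and Cdc20 (106 ± 17.5 TPM), with Cenpf (10.4 ± 2.87 TPM) lowest. None of these 30 genes passed the edgeR test of variation, and 0 of 13 and 1 of 17 had an unadjusted p under 0.05.

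The regulators of histone genes were present in every library. The 8 genes of histone transcription and S phase control were led by Ccna2 (83.4 ± 19.0 TPM), Yy1 (48.8 ± 9.65 TPM) and E2f1 (48.0 ± 13.8 TPM), with Pou2f1 (6.23 ± 0.84 TPM) lowest. Npat, the coactivator that sits at the histone clusters, stood at 53.3, 40.6, 69.2 and 50.7 CPM. All 8 genes were lowest in library 2, as were 37.5% of all genes that averaged 1 CPM or more. The 15 chaperone and nucleosome assembly genes, led by Ssrp1 (206 ± 48.5 TPM), Nap1l1 (165 ± 44.6 TPM) and Rbbp7 (143 ± 26.0 TPM) and lowest in Hira (10.7 ± 3.52 TPM), summed to 2038, 1681, 2400 and 2107 CPM, and 12 of 15 were lowest in library 2. None of the 8 or of the 15 passed the edgeR test of variation or had an unadjusted p under 0.05.

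The factors that form and remove the hairpin ends were present in every library. Slbp, whose product binds the hairpin, stood at 114, 68.8, 111 and 97.0 CPM, lowest in library 2. Lsm10 (25.6 ± 6.39 TPM) and Lsm11 (3.56 ± 0.20 TPM) encode subunits of the U7 particle that directs cleavage after the hairpin. The 14 processing and decay factors were led by Srrt (243 ± 69.8 TPM), Upf1 (81.1 ± 14.4 TPM) and Ncbp1 (73.2 ± 18.4 TPM), and Zfp473 was lowest at 0.93 ± 0.31 TPM. Of the 14, 6 were lowest in library 2, near the 37.5% of all genes that were, and none was highest there, beside 16.3% of all genes. None passed the edgeR test of variation or had an unadjusted p under 0.05.

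Other values shared the high library 2 or the low library 3 of the histone genes. The gene type rRNA, nearly all of it from 1 row (CT010467.1), stood at 6540, 9688, 5692 and 6030 CPM, highest in library 2 and lowest in library 3 as the histone genes were. Mitochondrial genes were also highest in library 2, at 205985, 233397, 181398 and 198368 CPM, and lowest in library 3. The 3 plasma cell markers (Jchain, Sdc1 and Prdm1, none at 0) summed to 1869, 1694, 667 and 1648 CPM, lowest in library 3. All 5 T cell markers were also lowest there, at a sum of 202, 91.7, 68.8 and 165 CPM, and all 5 had an unadjusted edgeR p under 0.05. Both erythroid markers that averaged 1 CPM or more were lowest there as well, and the 3 on that list summed to 26.2, 22.0, 19.6 and 64.2 CPM. Library 3 is also the library with Ddx3y and nearly without Xist. By contrast, the 8 germinal centre markers were lowest in library 2, at 1814, 1181, 1670 and 1312 CPM. The small nuclear RNA type stood at 25.7, 33.0, 22.9 and 41.0 CPM, with library 4 highest. The small nucleolar RNA type was also highest there, at 78.4, 97.6, 94.7 and 116 CPM. The mitochondrial rRNA type stood at 9571, 10730, 11463 and 11481 CPM, lowest in library 1. The small Cajal body RNA type was highest in library 2, at 4.05, 7.91, 4.85 and 5.80 CPM, and lowest in library 1. The part of any of these in the difference between libraries was not tested.

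**Figure D4:**
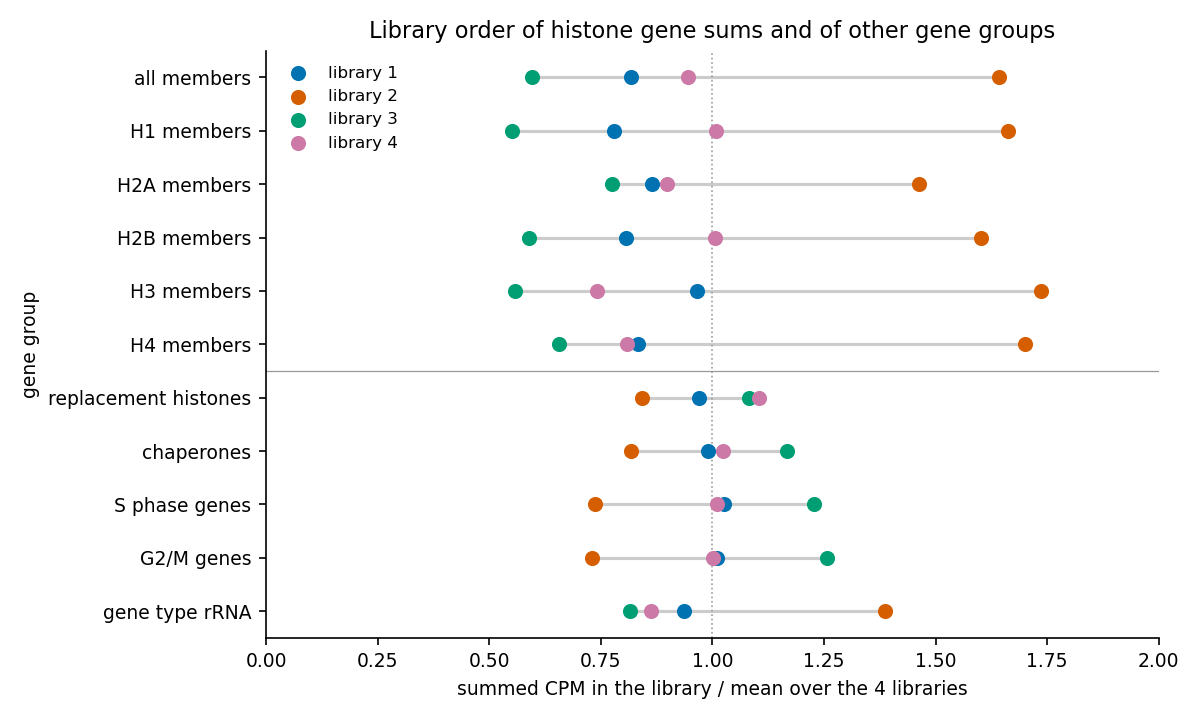
Summed CPM of gene groups in each library divided by the group's mean over the 4 libraries (x axis; 1 is the mean), with colours for libraries and grey bars for the range. Library 2 is the highest and library 3 the lowest point for the members and for each family, while library 2 is the lowest point for the S phase, G2/M, chaperone and replacement histone groups.

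Replacement histones, which are made outside S phase as well and mostly carry ordinary poly(A) tails, stood above the replication-dependent genes per length. The median of 11 replacement genes exceeded that of the 58 members by 3.42, 2.14, 3.85 and 3.44 on the log2(TPM + 1) scale in libraries 1 to 4, a mean of 3.22 ± 0.74 (exact two-sided sign-flip permutation over libraries, p = 0.125, the smallest that 4 libraries allow). It was higher in 4 of 4 libraries, and library 2 had the smallest difference. The list was led by H3f3b (349 ± 77.0 TPM), H2ax (346 ± 92.2 TPM), whose mRNA can end either way, and H1f10 (110 ± 17.0 TPM). Macroh2a2 was lowest, with 3 counts in library 4 and none elsewhere. Within H3, the replacement genes H3f3a and H3f3b summed to 399 ± 79.0 TPM, beside 79.7 ± 39.2 TPM for the 10 H3 members, a ratio of 4.34, 2.52, 9.44 and 7.95 in libraries 1 to 4. Within H2A, H2ax, Macroh2a1, H2az1, H2az2 and H2aj summed to 575 ± 131 TPM, beside 52.8 ± 20.4 TPM for 14 members. Within H1, H1f10 and H1f0 summed to 136 ± 17.4 TPM beside 161 ± 70.1 TPM for the members, so that neither group was higher beyond its spread. The replacement list's own sum, at 1231, 1069, 1375 and 1403 CPM, was lowest in library 2.

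Divergent H2A and H2B genes share 1 short stretch of DNA between their starts. The RNA levels of both genes of a pair were compared, not their promoter activity. The members contain 9 such pairs, with 176 to 302 bases between starts. Per length, the H2B gene was higher in all 4 libraries in 5 pairs, and in no pair was the H2A gene higher in all 4. For H2ac15 and H2bc15 the latter rests on library 1, where both had 25 counts. Without length, H2bc15 was higher in 0 of 4 libraries. The widest gap was between H2bc11 (46.2 ± 27.6 TPM) and H2ac11 (1.78 ± 0.91 TPM), whose starts lie 270 bases apart. In the H2ac6 and H2bc4 pair the values were 8.85 ± 1.67 and 17.1 ± 2.90 TPM. That direction rests on the H2ac6 model of 2482 bases, since without length the values were 9.78 ± 2.19 and 8.78 ± 1.66 CPM, with H2bc4 higher in 1 of 4 libraries. The H2ac7 and H2bc7 pair had 1.32 ± 0.94 and 1.43 ± 0.98 TPM. Counting may enter these differences, since 21.1% of the 50-base windows of H2ac11 and 40.6% of those of H2bc11 are found in no other gene, and its part was not tested.

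Promoters are shown for 3 members, as the DNA in front of the highest H1 gene, of the pair with the widest gap and of the highest H4 gene. They are the 250 bases before the RefSeq start (GRCm38.p6), 5′ to 3′ on the gene's strand, with CCAAT (the letters read by the factor NF-Y) and TATAAA (an element bound by TBP in core promoters) in capitals on either strand.
H1f2 (chr13:23738557-23738806, plus strand): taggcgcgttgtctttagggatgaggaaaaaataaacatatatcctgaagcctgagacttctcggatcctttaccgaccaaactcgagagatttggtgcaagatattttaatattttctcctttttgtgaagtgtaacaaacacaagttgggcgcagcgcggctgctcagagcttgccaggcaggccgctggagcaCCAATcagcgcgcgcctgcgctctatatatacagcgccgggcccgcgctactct
H2bc11 (chr13:22042948-22043197, plus strand): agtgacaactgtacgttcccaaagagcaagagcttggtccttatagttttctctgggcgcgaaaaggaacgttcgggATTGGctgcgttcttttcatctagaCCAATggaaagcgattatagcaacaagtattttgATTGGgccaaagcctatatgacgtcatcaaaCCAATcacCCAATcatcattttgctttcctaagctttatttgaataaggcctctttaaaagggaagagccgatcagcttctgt
H4c9 (chr13:22041363-22041612, minus strand): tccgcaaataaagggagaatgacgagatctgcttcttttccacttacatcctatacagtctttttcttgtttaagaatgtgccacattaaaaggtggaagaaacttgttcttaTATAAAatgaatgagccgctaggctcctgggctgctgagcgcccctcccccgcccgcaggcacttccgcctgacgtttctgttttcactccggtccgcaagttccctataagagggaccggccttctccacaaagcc
The H2bc11 window, which is also that of H2ac11 on the other strand, held 5 CCAAT matches and no TATAAA. The H1f2 window held 1 CCAAT and no TATAAA, and the H4c9 window 1 TATAAA and no CCAAT. Only the exact letters were searched for, at any place in the window. The H4c9 match lies far from the start, and the H1f2 window has the unmarked letters tatatata near the start. These matches therefore do not tell which of these genes has a TATA element. Of the 58 members, 53 had a RefSeq promoter. With the 50 bases after the start included, TATAAA occurred in 33 of 53 (62.3%), beside 13.6% of 32851 promoters, and CCAAT in 44 of 53 (83.0%), beside 37.4%. A CCAAT match and a TATAAA match can overlap by at most 1 base, and a match is a string of letters and not a measured site.

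Near-identical sequence limits which gene a short read can be given to. Of the 58 members, 54 shared at least 1 50-base window, the length of the reads, with transcripts of another gene, and the median share of windows found in no other gene was 51.8%. It was highest for H1 genes (median 98.9%) and lowest for H2A genes (median 34.0%). The 26 members with under 50% windows of their own had a median of 4.66 TPM, the 24 with 50 to under 90% a median of 6.05 TPM and the 8 with 90% or more a median of 3.65 TPM. Across the 58 genes, the share correlated with the level in CPM with Spearman's rho = 0.54 and in TPM with rho = 0.19. The genes are not independent, and longer models have both more counts and more windows of their own. Hist1h2ao, at 0 counts, shares 93.5% of its windows with Hist1h2ap, which was not analysed here. Some sharing comes from annotation, as H1f4 shares 23.8% of its windows with H2bc6, whose model reaches into it. How reads with several matches were counted is not given in the sources used here, so the levels of members with few windows of their own are uncertain.

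The length annotated past the hairpin differed between members. In 21 models the transcript runs at least 100 bases past it, and these members held 65.3% of the members' CPM and 44.0% of the TPM. They had a median of 4.57 TPM, beside 5.61 TPM for the 19 members whose model ends sooner and 5.43 TPM for the 18 without a hairpin. Among abundant members, the model runs past the hairpin by 4884 bases in H1f3, 2010 bases in H2ac6, 1153 bases in H1f4 and 840 bases in H1f2. The members' models seldom end at a polyadenylation signal. The signal AATAAA, or its common variant ATTAAA, lay in the last 50 bases of 13 of the 44 members with at least 50 bases after the stop, beside 75.7% of 20521 other genes. The range between libraries was 2.55-fold for the summed CPM of the extended models, 3.79-fold for the shorter ones and 2.73-fold for those without a hairpin, and library 2 was highest in each class.

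**Figure D5:**
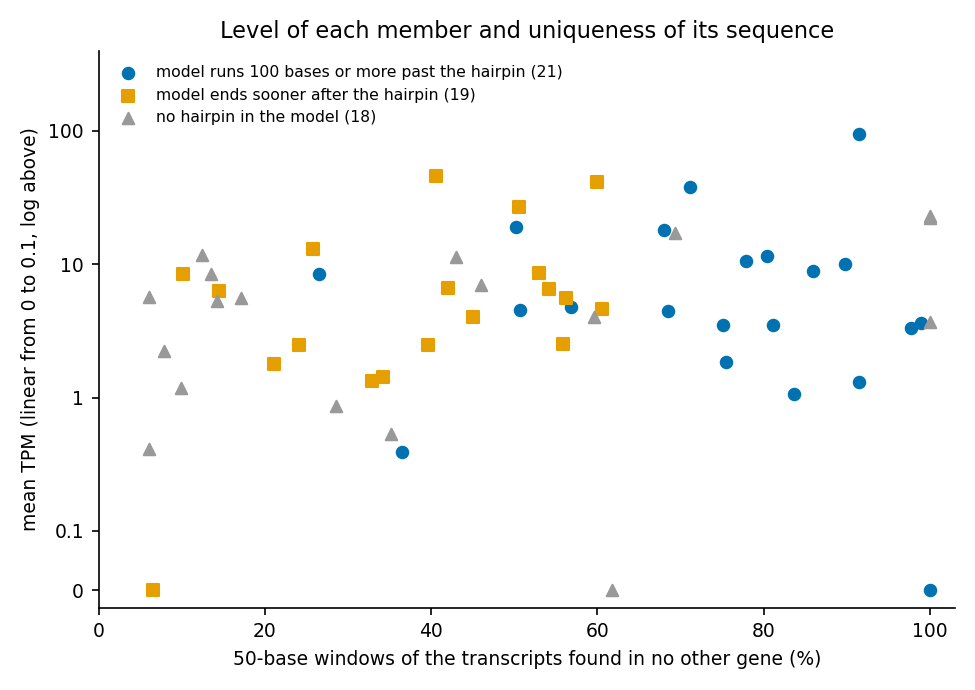
Mean level of each member in TPM (y axis, linear up to 0.1 and logarithmic above) against the percent of its 50-base windows found in no other gene (x axis); symbols tell whether the annotated model runs on past the hairpin. Members with few and with many windows of their own span similar levels per length, and H1f2 (94.5 TPM) is the highest point.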

How the data were processed

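Poly(A)-selected RNA of 4 libraries was sequenced as single reads of 50 nt. The authors deposited whole-number counts per gene, made with FastQC, STAR 2.5.2b and featureCounts 1.6.0 on mm10, per the submitters' processing notes. The sources used here do not give the annotation release, the use of strand or the handling of multiply matching reads. Members, lists and tests were chosen with earlier results of these data known. Members were found through GENCODE M21 symbols matched by identifier (37536 of 37646 rows), since the rule's symbols are older than those in the tables. CPM used all counts of a library, and TPM the union of M21 exons.

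Variation between libraries was tested on the deposited counts with edgeR 4.0.16 under R 4.3.3 (TMM, filterByExpr, an intercept-only glmQLFit; quasi-dispersion over its trend against the F distribution; Benjamini-Hochberg at 0.05 over all genes tested). The procedure was also run on simulated counts. That outcome is not given here, and the power to call ranges like those of the members is not shown. The test has a 1-group design, and its p-values measure only the spread between these libraries. The 50-base windows were compared with all M21 transcripts, not with a genome. Levels and shares carry the SD over 4 libraries, and 3 counts (0.205 to 0.218 CPM) set the upper limit for a gene without counts. Named genes were, by rule, the 5 members of each family highest by mean CPM, the called members, the 5 tested members with the smallest p, the lowest detected of each family, the testis forms, and the 3 highest and the lowest of each list. Other names were chosen after their values were seen, or by level per length. Alternatives were DESeq2 1.42.0 size factors and dispersions, limma 3.58.1, other filters, other scalings and each library left out. Python 3.11.15 did the rest.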

Additional observations from a re-analysis of the deposited data

Results flagged for a closer look

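Of 56 sets of 4 values examined, 5 had a library far from the other 3 by Dixon's ratio, which chance alone does in about 1 set of 20, and sets that share genes are not independent. In library 2, H4c9 stood at 17.6 CPM (10.5 to 10.97 in the others), H4c14 at 4.65 CPM (1.89 to 2.19 in the others) and H4c8 at 2.90 CPM (0.68 to 0.99 in the others). The summed H4 members stood at 57.0 CPM in library 2, beside 22.0 to 27.9 CPM in the others. In library 3, H2A genes took 11.3% of the members' TPM, beside 8.75 to 8.89% in the others. No cause was tested for any of these.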

How the results depend on the processing

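No paired analysis was possible because all libraries belong to 1 group. The number of genes called variable (1) was 262 without a filter on low counts, 63 with edgeR's robust option, 0 with limma and 159 as DESeq2 dispersion outliers, and 0 to 19 with a library left out. The number of members called (0) was 6 without the filter and 1 by DESeq2, and 0 with any library left out. Members at an unadjusted edgeR p under 0.05 (10) numbered 19 without the filter and 1 to 13 with a library left out, 1 being without library 2. The highest over lowest summed level (2.76-fold) was 1.59 to 2.76-fold with a library left out. Family shares and their order also changed. Without length they were 44.8% for H1, 22.1% for H2B, 9.32% for H3 and 13.98% for H4. Without each family's highest member they were 13.5% for H1, 7.63% for H2A, 25.2% for H2B, 9.71% for H3 and 11.4% for H4. Settings chosen after seeing the data gave, per coding length, 31.5% for H1, 11.3% for H2A, 26.4% for H2B, 10.3% for H3 and 20.4% for H4, and, per window not shared, 12.4% for H1, 13.1% for H2A and 23.9% for H3. The other 68 combinations of a main result and a setting were rated as unchanged. Shares stayed within their spread there, and counts and fold ranges within 1.5-fold. For the difference between replacement genes and members, only the direction was checked. No single value changed sign, but the order of families did turn, as H1 exceeded H2B without length and per coding length, and H2A exceeded H3 there. Members under 3 counts per library are beyond the depth.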
